A study of Caenorhabditis elegans with 2 samples.

Results

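The srh genes of Caenorhabditis elegans are a family of chemoreceptor genes, and their promoters were examined for binding of the protein encoded by Y75B8A.6. Members were all protein-coding genes whose name begins with srh- followed by a digit in the Ensembl annotation of WBcel235, the assembly also called ce11. This gave 220 of 19973 protein-coding genes of the nuclear genome. The promoter window of a gene took in 1000 bp before and 300 bp after each of its protein-coding transcript starts, and a gene is called bound where the summit of a peak of the main thresholded list lay in it. The word describes the position of a summit and says nothing of regulation.

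Nematode chemoreceptors are seven-transmembrane proteins coupled to G proteins, and most of those studied are made in chemosensory neurons, where they detect odorants, tastants and pheromones. The srh genes are one of the largest of the families, and many of them lie in clusters of similar copies. Each receptor is usually made in few cells, so a whole animal holds only a small share of nuclei in which a given srh gene is used.

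The measurement was chromatin immunoprecipitation sequencing (ChIP-seq) of whole L4 larvae at 48 h, grown from L1 larvae that had been starved after bleaching. All animals were of strain RW12275, in which Y75B8A.6 on chromosome III carries a TY1, EGFP and 3xFLAG insertion made by CRISPR, and the precipitation used an antibody against GFP. The 2 libraries are biological replicates of this 1 group, both share 1 input, and no animal without the tag was analysed here. No expression was measured, so the tissue was not checked against marker genes, and binding in few cells cannot be told apart from weak binding in many.

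The 4 stretches below are shown because the first 3 hold the summits at srh-269, srh-70 and srh-33, and the fourth overlaps the edge of the peak at srh-2 without reaching its summit. All are RefSeq sequence of ce11, written 5′ to 3′ on the strand named. The first, chrV:16592237-16592368 on the minus strand, is a glutamine tRNA gene upstream of srh-269, with the 60 bases before it. Capitals mark a match to the B box, an internal promoter element of tRNA genes.
srh-269 upstream tRNA gene with flank: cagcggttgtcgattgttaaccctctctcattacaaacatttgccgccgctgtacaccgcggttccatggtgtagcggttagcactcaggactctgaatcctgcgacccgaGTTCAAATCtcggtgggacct
The second, chrII:12518860-12519085 on the plus strand, is the whole stretch between the start of srh-70 and the start of the snoRNA gene T21B4.20, which point away from each other; the capital marks the summit base.
between srh-70 and snoRNA starts: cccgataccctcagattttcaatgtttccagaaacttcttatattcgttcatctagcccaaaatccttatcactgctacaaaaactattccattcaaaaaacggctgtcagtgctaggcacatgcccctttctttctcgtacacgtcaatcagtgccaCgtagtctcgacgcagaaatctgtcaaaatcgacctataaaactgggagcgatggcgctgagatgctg
The third, chrV:443855-443955 on the minus strand, is centred on the summit upstream of srh-33, again with the summit base as a capital.
srh-33 summit: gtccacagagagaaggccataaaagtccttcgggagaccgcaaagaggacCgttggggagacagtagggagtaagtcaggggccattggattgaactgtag
The fourth, chrV:731303-731402 on the plus strand, is the 100 bases before the internal srh-2 start at base 731403, with the bases inside the peak in capitals.
srh-2 internal start upstream: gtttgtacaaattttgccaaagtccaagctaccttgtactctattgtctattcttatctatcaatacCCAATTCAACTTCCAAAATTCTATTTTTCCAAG
GC content was 53.8% in the first, 44.2% in the second, 53.5% in the third and 32.0% in the fourth. Each of the 4 summit bases with 50 bp on either side was found at 1 place in the genome. There were 0 further places at 80% identity or more over 80 bp or more, and the rest of each peak was not searched.

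The family has a common layout. Of the 220 srh genes, 180 lie on chromosome V, 27 on II, 7 on IV, 3 on I, 2 on X and 1 on III. The arms of the autosomes, here the outer 33.3% of their length at each end, hold 187 of them (85.0%), against 53.4% of all protein-coding genes. A single transcript start is annotated for 206 srh genes (93.6%), against 73.7% of all, and the windows covered a mean of 1360 bp per srh gene, against 1567 bp over all genes. The windows of 66 srh genes overlapped that of any other protein-coding gene, srh genes included. Among these 66 were the 16 whose windows overlapped that of another srh gene.

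Summits of the main list lay in the windows of 4 of the 220 srh genes, srh-269, srh-70, srh-2 and srh-33. This is 1.82%, with an exact 95% interval of 0.498% to 4.59% that covers counting error only, and the share over all protein-coding genes was 2.32%. The main list held 933 peaks, and a peak's signal, the value the authors' peak caller gave it, has no stated scale and is compared only within a list. In the conservative list, the smaller of the series' thresholded lists, srh-269, srh-70 and srh-2 were bound, 1.36% of the family against 1.97% of all genes. The thresholded list of replicate 1 gave srh-269 and srh-2, 0.909% against 0.886%, and that of replicate 2 gave srh-269, srh-70 and srh-2, 1.36% against 0.946%. The shares of the family thus lie near the background in each of the 4 lists, and no srh gene outside these 4 was bound in any of them.

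On chromosome V, 3 of 180 srh genes were bound (1.67%), against 1.26% of all its protein-coding genes. On chromosome II it was 1 of 27 (3.70%), against 2.15%. Among the genes on the arms of V, 3 of 155 srh genes were bound (1.94%), against 0.97% of all protein-coding genes there. The exact interval of that srh share ran from 0.401% to 5.55% and takes in the 0.97%. It covers counting error only and takes the genes as independent, and the difference was not tested.

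For both of the strongest summits, a small RNA gene starts nearer than the receptor gene does. The window of srh-269 (WBGene00005475, chrV:16590156-16592042, minus strand) held a peak at chrV:16592217-16592472 with a signal of 108.2, rank 64 of the 933. Its summit, base 16592345, was intergenic, 303 bp upstream of the srh-269 start. The tRNA gene T03E6.t1 (tRNA-Gln, chrV:16592237-16592308, minus strand) starts 37 bp from the summit, so a tRNA start is nearer. A noncoding RNA gene of the other strand, T03E6.13, starts 128 bp from it, and the first sequence above holds the tRNA gene with its B box match from base 52. The B box was searched as GTTCNANNC on both strands, in a form chosen after the tRNA gene had been looked at.

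The window of srh-70 (WBGene00005291, chrII:12516728-12518859, minus strand) held a peak at chrII:12518890-12519145 with a signal of 91.6, rank 125. The summit, base 12519018, was intergenic and 159 bp upstream of the srh-70 start. The snoRNA gene T21B4.20 (chrII:12519086-12519217, plus strand) starts 68 bp from the summit, so a snoRNA start is nearer. The microRNA gene mir-77 starts 250 bp from it, and the summit lies also in the window of ceh-99, a homeobox gene whose start is 963 bp away.

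The other 2 bound genes have no tRNA, snoRNA or snRNA start in their windows. The gene srh-2 (WBGene00005228, chrV:728301-734311, plus strand) held a peak at chrV:731370-731625 with a signal of 87.8, rank 153. Its summit, base 731498, lay inside the gene, in an annotated 5′ UTR. The nearest srh-2 start, an internal one at base 731409, is 89 bp upstream of it. This is another start than the one at base 731403 that the fourth sequence precedes. The nearest tRNA or snoRNA start, of the tRNA-Ala gene K09C6.t1, was 125827 bp away, so none is nearer. For srh-2, 7 starts are annotated, the first at base 728301, and the windows cover 3248 bp. With only the outermost start of each gene taken, srh-2 was not bound, while srh-269, srh-70 and srh-33 were. The gene srh-33 (WBGene00005256, chrV:441820-443293, minus strand) held a peak at chrV:443777-444032 with a signal of 53.2, rank 705. The summit, base 443905, was intergenic and 612 bp upstream of the start, and the nearest snoRNA start, of F33E11.7, was 124951 bp away, so none is nearer here either.

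**Figure D1:**
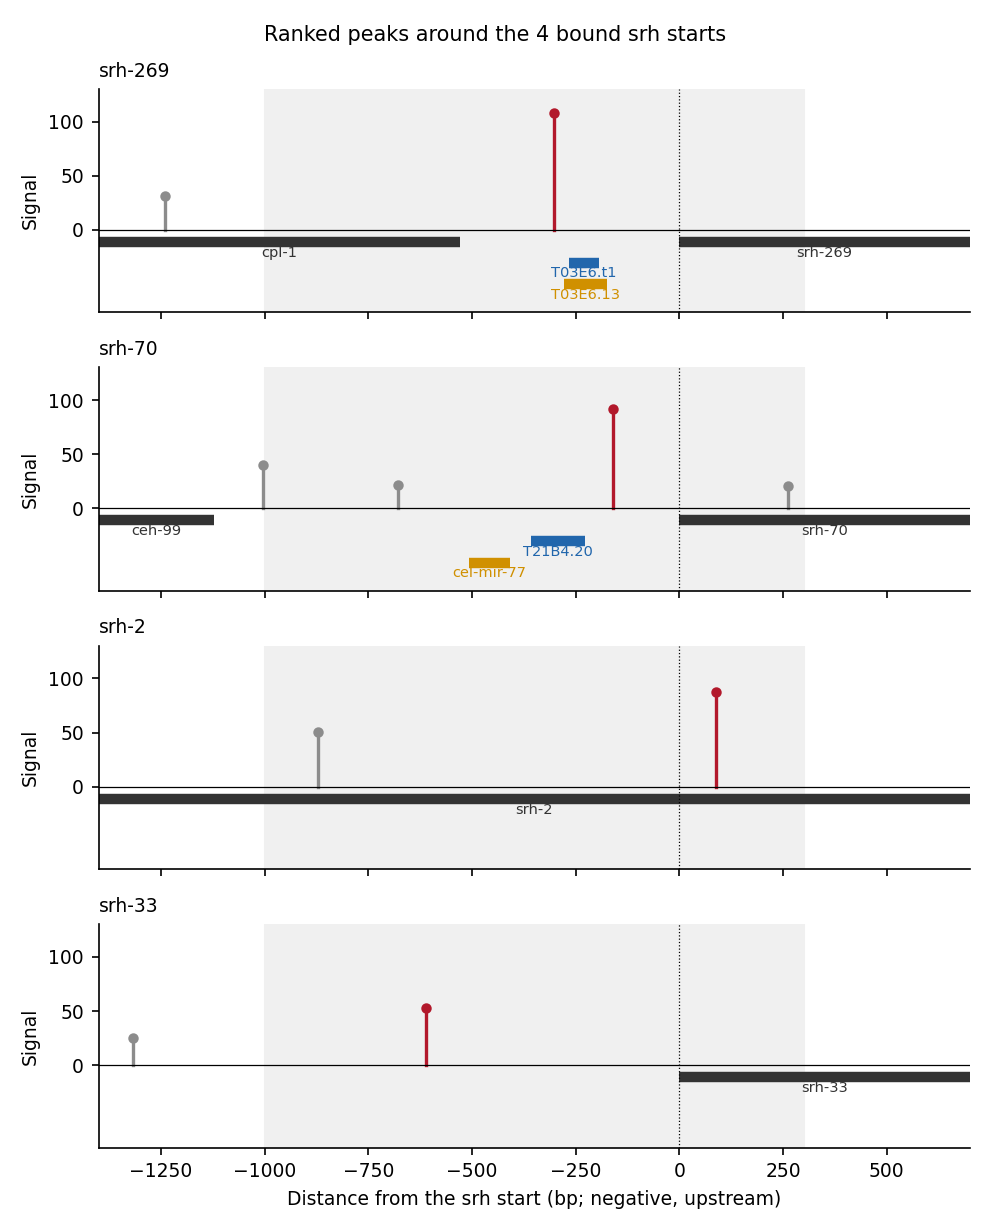
Ranked peaks around the bound srh starts. Each stem is the summit of a peak in the ranked list behind the main list, with its signal on the vertical axis and its distance from the srh start in bp on the horizontal axis (for srh-2, the internal start next to the main summit); red stems are peaks of the main list and grey stems are not. Grey shading is the promoter window of that start, and bars below the axis are genes, black for protein-coding, blue for tRNA and snoRNA, ochre for other noncoding RNA. The main summits of srh-269 and srh-70, at 303 bp and 159 bp upstream, sit beside a tRNA and a snoRNA gene, and those of srh-2 and srh-33 do not.

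Behind each thresholded list stands a ranked list of candidate peaks, most of them weak: the one behind the main list held 103934 peaks. The ranked lists give a value for each replicate. At srh-269 the signal was 39.3 in replicate 1, at rank 435 of 75570, and 69.0 in replicate 2, at rank 67 of 56066. At srh-70 it was 33.7 in replicate 1 (rank 781) and 47.1 in replicate 2 (rank 186). Ranks are within lists of different lengths, and each describes its own list only.

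At the internal start of srh-2 the signal was 54.6 in replicate 1 (rank 145) and 32.2 in replicate 2 (rank 609). At srh-33 it was 23.3 in replicate 1 (rank 4177) and 27.99 in replicate 2 (rank 978). The score, on a scale to 1000 that follows the irreproducible discovery rate and is at least 830 in the main list, was 909 for srh-33 and 1000 for the other 3 genes. At its main summit srh-269 scored 1000 in both replicates, while srh-70 scored 323 and 1000, srh-2 1000 and 389, and srh-33 199 and 379 in replicates 1 and 2. So srh-269 was past 830 in both, srh-70 and srh-2 in 1 each and srh-33 in neither. In the ranked list behind the conservative list srh-33 scored 738, which left it out of that list.

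The call of srh-2 in replicate 2 rested on another summit. That one, base 727749 with a signal of 39.3, lay in a coding exon, 552 bp upstream of the first srh-2 start. It was inside icl-1, 244 bp downstream of the start of this glyoxylate cycle gene, which is transcribed away from srh-2. A noncoding RNA gene, C05E4.16, starts 482 bp from this summit. The conservative list held 3 summits in the windows of srh-2. They lay at the internal start (87.8), at base 727733 inside icl-1 (57.1) and at base 730538 in an intron of srh-2 (50.4). So although srh-269 and srh-2 were bound in all 4 thresholded lists, srh-269 was the only one of the 4 bound genes with a summit within 150 bp of its main summit in every list.

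A start of a tRNA, snoRNA or snRNA gene lay in the windows of 2 srh genes, srh-269 and srh-70 (0.909%), against 1.61% of all protein-coding genes. Both were bound. Over all protein-coding genes with such a start in the window the share bound was 27.6%, or 89 of 322. Of the 218 srh genes without one, 2 were bound (0.917%), against 1.9% of all protein-coding genes without one. Among the 463 bound protein-coding genes, 89 (19.2%) had such a start.

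Most of the family had a weak candidate peak only. A ranked summit lay in the windows of 145 srh genes (65.9%, exact 95% interval 59.2% to 72.1%), against 77.9% of all protein-coding genes. The share in the ranked list behind the conservative list was 60.5% against 75.7%. It was 48.6% against 62.7% in replicate 1 and 40.0% against 58.1% in replicate 2. The srh share was below the share over all genes in each of these 4 lists, which are not independent of each other.

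Set against genes of the same chromosome, the gap was narrower on V. There 118 of 180 srh genes (65.6%) had a ranked summit, against 72.0% of the other protein-coding genes of V. On the arms of V the share was 69.7% (108 of 155) for srh genes and 73.7% (2241 of 3042) for the others, and the exact interval of the srh share, 61.8% to 76.8%, takes in the share of the others. On II it was 18 of 27 srh genes (66.7%), against 82.7% of the others.

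Over the whole family the signal was lower too. The highest signal in the window had a median of 12.0 over the 220 srh genes, with genes without a peak taken as 0, against 18.9 over all protein-coding genes. Among genes with a ranked peak the median was 18.0 for srh genes, with quartiles of 12.4 and 25.1, against 22.2 for all, with quartiles of 16.4 and 29.2. Ranked among all protein-coding genes, the median srh gene stood at percentile 30.8, and 64 srh genes (29.1%) were above the median of all genes. On the arms of V the median percentile was 31.8 for srh genes and 42.9 for the other protein-coding genes. By chromosome it was 29.9 for the srh genes of V against 42.1 for all protein-coding genes of V, and 41.1 for those of II against 51.9. For the 7 srh genes of IV it went the other way, at 51.1 against 47.5 for all protein-coding genes of IV.

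**Figure D2:**
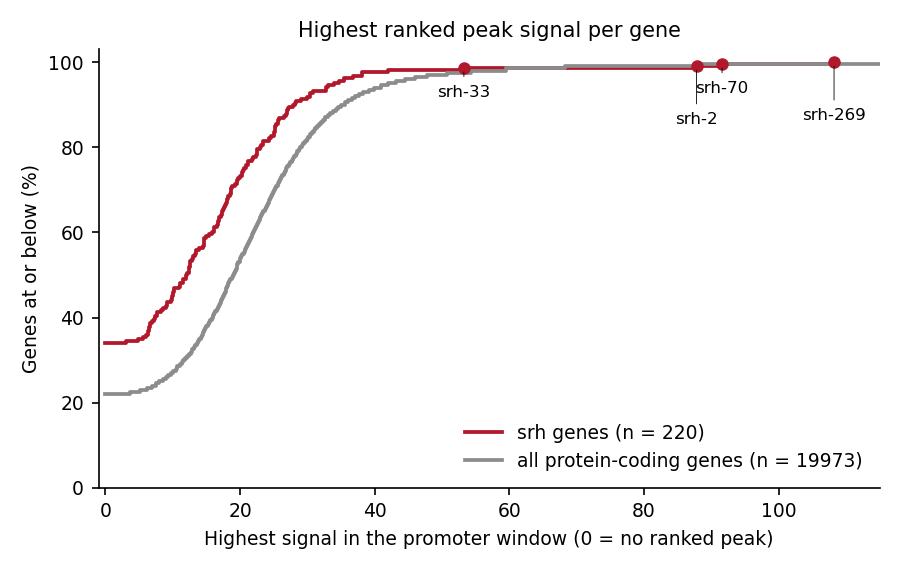
Cumulative share of genes (vertical axis, %) by the highest signal of a ranked peak in the promoter window (horizontal axis, 0 where there is none), for the 220 srh genes in red and all 19973 protein-coding genes in grey. Red points are the 4 bound srh genes. The srh curve lies to the left over most of the range, with medians of 12.0 for srh genes and 18.9 for all, and srh-2, srh-70 and srh-269 stand far to the right of the rest of the family. The horizontal axis ends before the highest value of all genes.

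The 4 bound genes held the highest 4 signals of the family; the calls come from the same peaks, so this is a description. Of the other 216, 141 had a ranked peak, with signals from 3.05 to 42.0 and a median of 17.8, while the lowest of the bound genes was at 53.2. In replicate 1 the highest unbound gene was srh-308 at 30.4, above srh-33 at 23.3. In replicate 2 it was srh-246 at 25.2, below the 27.99 of srh-33. The ranked list behind the main list also held 120 peaks that reach the lowest score of the main list without being in it, and 0 of them had a summit in an srh window.

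Few srh genes had a candidate peak in both libraries. A ranked peak in both replicates was found for 53 srh genes (24.1%), against 43.6% of all protein-coding genes, and in neither for 78 (35.5%), against 22.8%. Any summit in the windows of a gene was counted, and positions were not matched between the libraries. At srh-2 the highest values came from different summits, base 731489 in replicate 1 and base 727749 in replicate 2. Over the 53, Spearman's rho between the 2 libraries' highest signals was 0.303. Without the bound genes it was 0.118 over 49 genes, and over the 8716 protein-coding genes with a peak in both it was 0.370. These are descriptions across genes, whose values share the libraries and the input.

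**Figure D3:**
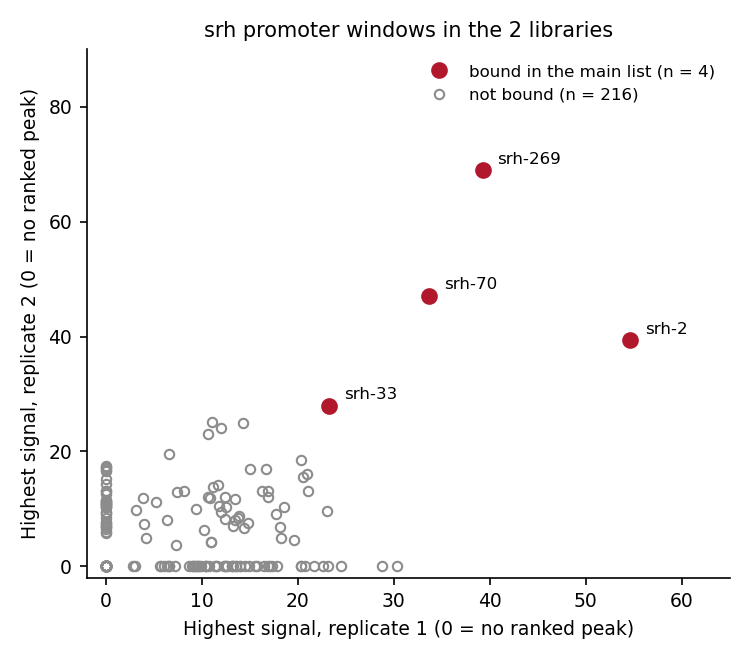
Highest signal in the promoter window of each srh gene in the ranked list of replicate 1 (horizontal axis) and of replicate 2 (vertical axis), with 0 for no ranked peak; the signal scales of the 2 lists are not known to be shared. Red points are the 4 bound genes and open grey circles the other 216. The bound genes have peaks in both libraries, and 78 genes lie at 0 in both. For srh-2 the value of replicate 2, 39.3, is the summit inside icl-1.

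Of the 10 unbound srh genes with the highest signal, srh-16 led with 42.0 in the ranked list behind the main list, at rank 2379 and with a score of 605. Its summit was intergenic and 69 bp upstream of the start. The highest signals anywhere in its window were 14.3 in replicate 1 and 25.0 in replicate 2, not matched to that summit. It was followed by srh-266 (38.1), srh-145 (38.0), srh-73 (36.7), srh-246 (35.5), srh-308 (35.4), srh-35 (34.7), srh-34 (33.9), srh-76 (33.1) and srh-8 (32.8). For none of the 10 was a tRNA or snoRNA start nearer to the summit than the srh start. In both replicates 9 had a peak somewhere in the window. Their highest signals ran from 11.0 to 30.4 in replicate 1 and, for the 9, from 4.97 to 25.2 in replicate 2.

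For 3 of these 10, another protein-coding gene starts nearer to the summit than the srh gene does. The summit in the srh-308 window lay 205 bp from the start of mtl-2, a metallothionein gene. The highest signal in that window was 30.4 in replicate 1, and replicate 2 had no ranked peak there. That in the srh-35 window was in an intron of M02H5.8, 63 bp from its start and 814 bp from that of srh-35. That in the srh-266 window was 163 bp from the start of F31F4.11 and 197 bp from that of srh-266. The summit of srh-8 was inside its own gene, in an intron 279 bp downstream of the start.

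Several of these genes are neighbours at the left end of chromosome V. Its first 1000000 bp hold 12 srh genes, a stretch chosen after the values were seen and so given as a description. Of the 14 srh genes named so far, 6 lie there, the bound srh-33 and srh-2 and the unbound srh-34, srh-35, srh-246 and srh-266. The 12 srh genes had a median percentile of 83.6, against 48.8 for the other 211 protein-coding genes of the stretch. A ranked summit was found for 10 of the 12 srh genes (83.3%), against 81.5% of the others. With 2 of 12 bound, against 2.69% of all protein-coding genes of the stretch, the numbers are small.

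Ranked summits were spread over the whole srh window. In windows of the outermost start there were 222 ranked summits, 1.01 per srh gene, against 1.38 per gene over all protein-coding genes. The 200 bp upstream of the start held 32 of them (14.4%), against 14.9% over all genes. The median position was 402 bp upstream for srh genes and 327 bp upstream for all.

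**Figure D4:**
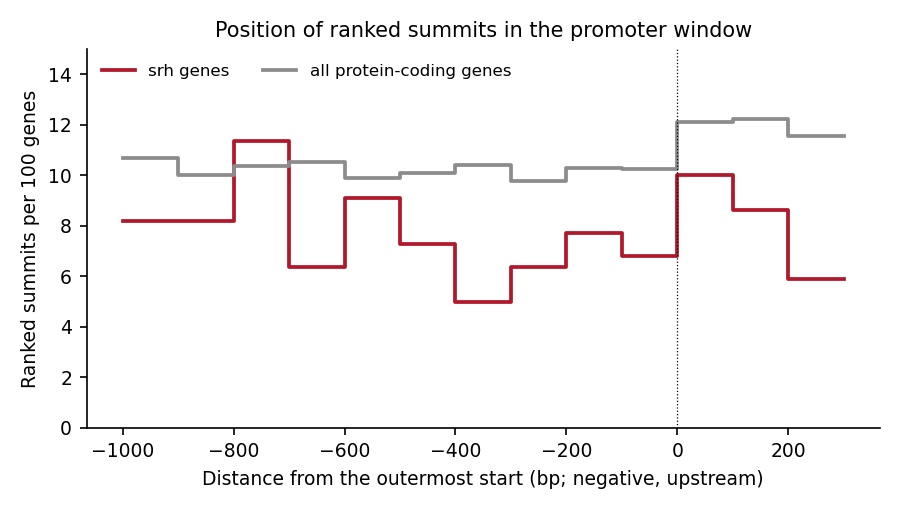
Ranked summits per 100 genes (vertical axis) in bins of 100 bp by distance from the outermost transcript start (horizontal axis, bp, negative upstream), for srh genes in red and all protein-coding genes in grey. The srh line lies below that of all genes in each bin but the one that begins 800 bp upstream, where 25 srh summits fall. The srh bins hold 11 to 25 summits each.

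Of the srh genes 4 were bound (1.82%), a share near and below the 2.32% of all protein-coding genes. The other 21 chemoreceptor families searched, 1089 genes, also had 4 bound genes (0.367%), and 17 of the families had 0. In the str family it was 0 of 193 genes, which allows a share of up to 1.55%, and in srw 0 of 109, up to 2.75%. Of the 4 bound genes of other families, sre-23 (signal 105.0) had a snoRNA start, of ZK265.10, at 56 bp from the summit and srd-44 (60.7) a tRNA start, of F17A2.t1, at 13 bp. The other 2, srbc-38 (53.3) and srx-125 (37.7), had none nearer than their own start. In srh and in the other families alike, 2 bound genes had a tRNA or snoRNA start nearer and 2 had not.

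The share with a ranked summit was 65.9% in srh and 52.8% over the other families, both under the 77.9% of all protein-coding genes. The median percentile was 30.8 for srh genes and 24.3 for the other families' genes. Among the 16 families with at least 30 genes, srh included, 13 had a median percentile below that of srh, and the range was 11.1 to 35.4. The low end is the tied value given to genes without a ranked peak. It was the median of sra, srg, sru, srv and str, and says only that fewer than 50% of their genes had a peak. A list of genes of chemosensory signalling, sensory cilia and sensory neuron fate had higher values, with no test of the difference. Of 26 such genes 0 were bound, which allows a share of up to 11.5%, but 20 had a ranked summit (76.9%) and their median percentile was 55.8, with egl-4, a cGMP-dependent protein kinase, the highest at a signal of 33.4.

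**Figure D5:**
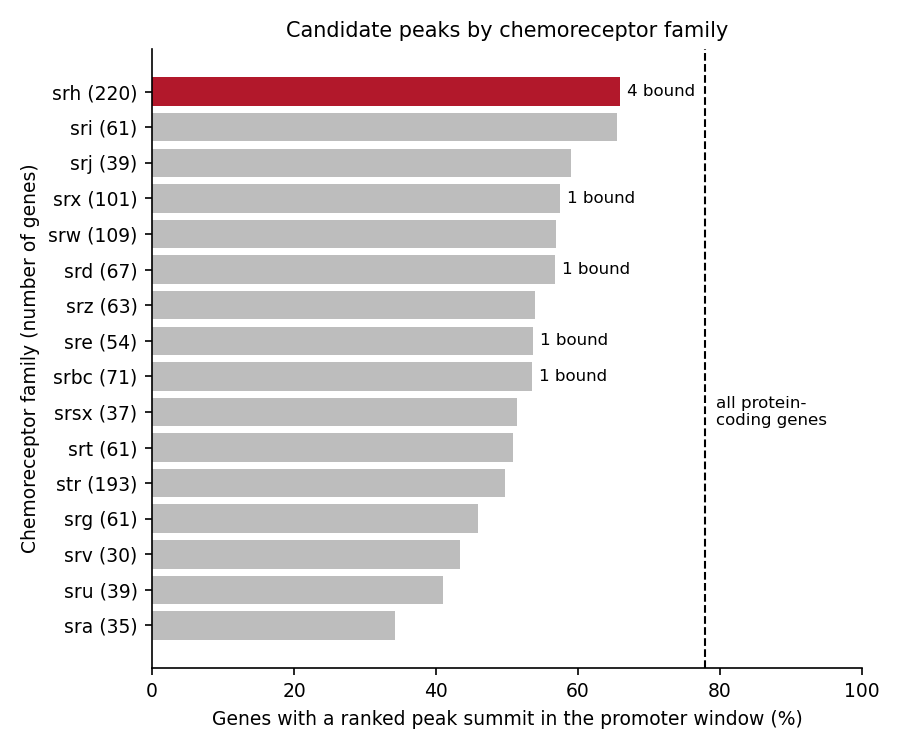
Share of genes with a ranked summit in the promoter window (horizontal axis, %) for the 16 chemoreceptor families of at least 30 genes (vertical axis, number of genes in brackets), with srh on top and the others in falling order. Numbers beside bars are genes bound in the main list, and the dashed line is the 77.9% of all protein-coding genes. All families shown lie under that line, and srh has the highest share of them at 65.9%, next to sri at 65.6%.

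In the stretch from 250 bp upstream to 50 bp downstream of the outermost start, 93 of the 220 srh genes (42.3%) held an E box, searched as CACGTG or CACCTG on both strands, against 13.9% of all protein-coding genes. E boxes are hexamers to which basic helix-loop-helix factors bind. The stretches of 150 bp on either side of the 933 main summits held one in 17.0%, and those at the summits of the 4 bound srh genes in 0 of 4; the promoters of the 4 bound genes held none either. The 93 srh genes with an E box and the 127 without one had ranked summits in 64.5% and 66.9%, with median percentiles of 27.4 and 36.7. Over all protein-coding genes the ranked shares were 76.1% with an E box and 78.1% without. A match is a run of letters and not a binding site.

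The B box letters were found in the promoters of 29 srh genes (13.2%), against 8.87% of all protein-coding genes, and in 30.7% of the stretches, of the same length, at the 933 main summits. Of the 4 bound srh summits, those of srh-269 and srh-33 had a match. At srh-269 it is the one inside the tRNA gene, and at srh-33 no tRNA gene is annotated in the stretch. That none is matched at srh-70 and srh-2 says only that these letters are not in those windows.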

How the data were processed

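The data were ChIP-seq peak lists of 2 replicate libraries, ce11 per the labels, with 2 lists for each replicate and 4 for the series. The signal of each peak is a column of the lists deposited by the authors; its scale is not stated, and it was used only within a list. The score of each peak in the deposited lists, from the irreproducible discovery rate, is at most 1000 and at least 830 in the main list. Which aligner and which peak caller were used is not given in the sources used here, and the lists carry no read totals, so depth is unknown and precision rests on numbers of genes. Each list derives from 1 input shared by both libraries, per the descriptions the authors deposited, which name 1 more file of unstated role for the thresholded lists. All 8 peak lists were used, and 0 columns were left unmapped.

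Genes came from Ensembl release 115, sequences and tRNA products from RefSeq, both of WBcel235. Starts were those of protein-coding transcripts. A percentile ranks a gene by its highest ranked signal among all protein-coding genes, genes without a peak lowest. Intervals are exact (Clopper-Pearson) at 95%, and an upper limit for a count of 0 is 3 counts of the total; both cover counting error only. With 1 group there is no contrast, so no test was made. The genes named were all srh genes bound in any thresholded list, the 10 unbound srh genes of highest signal, the nearest small RNA genes and the bound genes of other chemoreceptor families; icl-1, ceh-99, mtl-2 and other neighbours of the summits were added after their values were seen. The members and lists were chosen with earlier results of these data known, and both motifs were chosen after the peaks had been seen. The window code was tested on simulated summits. Tools were blastn 2.17.0, matplotlib 3.10.9, scipy 1.17.1, pandas 2.3.3 and numpy 2.4.6, under Python 3.11.15.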

Additional observations from a re-analysis of the deposited data

How the results depend on the processing

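With the list of 1 replicate alone the number of bound srh genes was 2 to 3, the share of all protein-coding genes bound 0.886% to 0.946%, the bound srh genes with a tRNA or snoRNA start nearer 1 to 2, and those without a small RNA start in the window 1 in either replicate (srh-2). In the same way 88 to 107 srh genes had a ranked summit, with a median percentile of 18.6 to 21. With fewer than 50% of the family having a peak, that median is the tied value given to all genes without one, and it says nothing of srh signal. With a window from 500 bp upstream to 100 bp downstream, 89 srh genes had a ranked summit, their median percentile of 21.2 was again the tied value, 1 bound srh gene (srh-2) was without a small RNA start, and 1.48% of all protein-coding genes were bound. The conservative list also left 1 such srh gene. With summits near small RNA starts left out, or with only the nearest start of any biotype taken, 2 srh genes were bound, srh-2 and srh-33; the second of these settings gave 1.36% of all genes. Peaks at or above the median signal bound 1.34% of all genes. With the outermost start only, srh-269, srh-33 and srh-70 were bound and srh-2 was not, while 2.1% of all genes were bound. The median percentile was then 33, and with the remaining alternatives it was 29.2 to 31.9. No replicate spread of this median could be had, since both single-replicate values are tied ones. The other counts and shares stayed within 1.5 times. Use of all transcript starts was chosen after seeing the data and gave 4 bound srh genes.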
